A study of Mus musculus with 10 samples.

Results

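The layout of H3K4me3 and H3K27me3 relative to each other was described in mouse embryonic stem cells deleted for BAF250a, from the lists of enriched intervals (islands) of the KO H3K4me3 and KO H3K27me3 libraries. All islands on the autosomes were taken, which gave 39509 of 40978 H3K4me3 islands and 6573 of 6833 H3K27me3 islands, and 2 of the 10 samples of the series. BAF250a, the product of Arid1a, is a subunit of the BAF (SWI/SNF) complex, which moves and evicts nucleosomes. The cells, of strain background 129/C57BL/6, were kept on embryonic fibroblast feeders in serum with LIF, and received 1 µM 4-hydroxytamoxifen for 36 hours from 4 hours after passage. Cells were fixed in 1% formaldehyde for 10 minutes before nuclease digestion, brief sonication and ChIP. Each mark had 1 library and no replicate, so the spread between replicates is unknown and no p-value was computed. The WT (ethanol) libraries were not used, so nothing below can be attributed to the deletion. The labels used here do not name the allele, the Cre or the number of clones. How much chromatin came from feeder cells was not measured.

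H3K4me3 is written by the SET1 and MLL complexes and marks promoters, above all those rich in CpG. H3K27me3 is written by Polycomb repressive complex 2 and marks repressed genes. In embryonic stem cells many promoters of developmental regulators carry both marks and are called bivalent. Bulk ChIP reads come from many cells, so islands of both marks at 1 place can stem from the same nucleosome, from neighbouring nucleosomes, or from different alleles or cells. Islands are therefore called overlapped here, not bivalent.

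The 2 lists differed in depth and in grain. The autosomal H3K4me3 islands held 13205844 ChIP reads over 143.9 Mb and the H3K27me3 islands 777925 over 34.7 Mb. H3K4me3 islands were narrow and well above control, with a median of 2000 bp (quartiles 1200 and 4800 bp) and a median fold over control of 3.51. H3K27me3 islands were wider and closer to control, with a median of 4000 bp (3200 and 5600 bp) and a fold of 2.22. The ChIP depth was 1.35 times the control depth for H3K4me3 and 1.03 times for H3K27me3. Islands consist of windows of 200 bp, and neighbouring islands of a list lay at least 400 bp apart for H3K4me3 and 800 bp apart for H3K27me3, which follows from the different gaps allowed in calling.

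A small part of the H3K4me3 islands and a large part of the H3K27me3 islands met the other mark. Of the H3K4me3 islands, 2770 overlapped H3K27me3 by 1 bp or more (7.01%, 95% interval 6.76 to 7.27%). Of the H3K27me3 islands, 2849 overlapped H3K4me3 (43.3%, 42.1 to 44.6%). These shares of the whole lists are the background for the classes below, and all intervals treat islands as independent draws and cover counting error alone. The length that carried both marks was 5.77 Mb, which was 16.6% of the H3K27me3 length and 4.01% of the H3K4me3 length. The overlapped H3K27me3 islands held 53.5% of the reads of their list, and the overlapped H3K4me3 islands 5.71% of theirs. At the threshold of the rule, 199 of 3330 overlapping pairs (5.98%) shared a single window of 200 bp. An overlap of 50% of the smaller island left 4.55% of H3K4me3 and 24.5% of H3K27me3 islands overlapped, and a fold of 2 or more in both lists left 4.25% of H3K4me3 islands. With the H3K4me3 list reduced to as many islands as the H3K27me3 list, those with most reads, 3.85% of H3K27me3 islands were overlapped. The share of 43.3% thus rests on H3K4me3 islands below those with most reads. With 50 or more reads required in both lists it was 41.7%. In 10 equal parts by reads, the overlapped share of H3K4me3 islands was 2.25% in the lowest, 15.7% in the seventh, 15.9% in the eighth and 1.97% in the highest. At 1 bp, just outside the rule, 79 H3K4me3 and 115 H3K27me3 islands touched the other mark without sharing a base.

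Over all folds together, H3K4me3 islands of intermediate width were overlapped most often, and the widest ones seldom. Of islands above 2 and up to 4 kb wide, 1034 of 7967 overlapped H3K27me3 (13.0%, 12.2 to 13.7%). Of islands up to 1 kb the share was 2.52% (2.19 to 2.88%, 210 of 8346), below the 7.01% of the whole list. Narrow islands meet the other mark less often by their width alone, so part of this difference is fixed by the overlap rule. Of islands wider than 10 kb it was 3.16% (2.51 to 3.91%, 80 of 2534). These broad domains were also the most enriched, with a median of 120.4 ChIP reads per kb and a fold of 7.73, against 52.2 reads per kb and a fold of 3.12 at 2 to 4 kb. The broad domains thus combined the highest H3K4me3 enrichment among the width classes with a low share of H3K27me3.

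Width and enrichment were separable to some degree. With the list ordered by fold and divided into 5 equal parts, the part with the highest fold had an overlapped share of 1.45% among islands wider than 10 kb (24 of 1654) and of 7.51% among islands of 2 to 4 kb (55 of 732). In the middle part the share was 12.5% above 10 kb (7.81 to 18.6%, 20 of 160) and 17.0% at 2 to 4 kb (15.4 to 18.7%, 341 of 2004). Those 2 intervals overlap, so at middle fold no lower share of broad islands could be shown. In the part above it the share was 4.20% above 10 kb (2.83 to 5.97%, 29 of 691) and 15.8% at 2 to 4 kb (14.04 to 17.7%, 248 of 1568), again lower for broad islands. In the lowest part by fold the order turned, with 30.9% at 6 to 10 kb (19.1 to 44.8%, 17 of 55). At 2 to 4 kb in that part it was 8.22% (6.93 to 9.67%, 133 of 1618). Above 10 kb that part held 5 islands, of which 2 were overlapped. In the second-lowest part the share was 20.8% above 10 kb (7.13 to 42.2%, 5 of 24). At 2 to 4 kb it was 12.6% there (11.2 to 14.1%, 257 of 2045), with overlapping intervals. Over all widths and in 10 equal parts by fold, the share was 6.81% in the lowest part, 10.3% in the sixth and 1.85% in the highest.

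H3K27me3 islands showed another pattern, with most overlap among the widest and the most densely covered. With an overlap of 1 bp or more, a wider island meets the other mark more often by its width alone. That part of the order by width was not separated. In 10 equal parts of the list by width, the share with H3K4me3 was 66.9% (63.1 to 70.5%) in the widest part, of 8600 bp or more. It was 34.7% (31.1 to 38.5%) in the sixth part and 44.2% in the narrowest, against 43.3% in the list. Ordered by ChIP reads per kb, it rose from 11.6% (9.21 to 14.2%) in the lowest part to 67.2% (63.4 to 70.8%) in the highest. Ordered by fold over control it fell instead, from 54.1% (50.2 to 58.0%) in the lowest part to 26.7% (23.4 to 30.3%) in the highest. The wide islands went the other way: above 10 kb, and in 5 equal parts of the list by fold, the share was 58.2% (49.4 to 66.7%, n = 134) in the lowest, 80.2% (71.1 to 87.5%, n = 101) in the middle and 84.8% (68.1 to 94.9%, n = 33) in the highest part. At 2 to 4 kb it went from 53.5% (49.1 to 57.9%) to 24.5% (21.4 to 27.7%). Control reads moved with these shares: ordered by control reads per kb, the overlapped share was 13.7% in the lowest part, 66.8% in the ninth and 52.6% in the highest. The part of control density in the overlap was not tested.

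**Figure D1:**
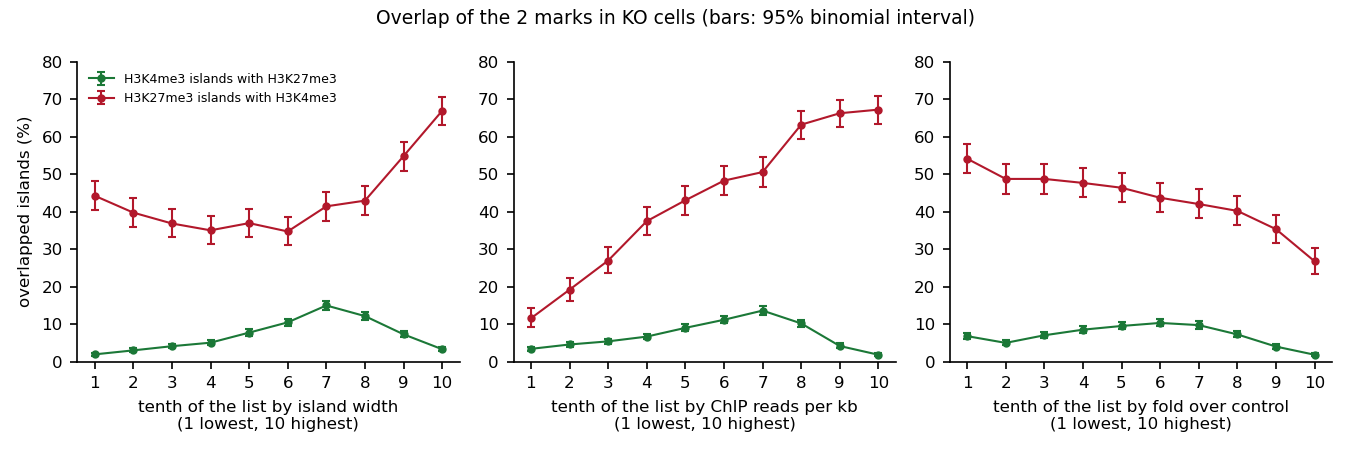
Share of islands that overlap the other mark (y axis, percent) in 10 equal parts of each list ordered by island width, ChIP reads per kb and fold over control (x axis, lowest to highest); points are shares and bars 95% exact binomial intervals. H3K4me3 islands (green) peak in the seventh part by width at 15.0% and end at 3.32%, while H3K27me3 islands (red) reach 66.9% in the widest part and, over all widths, fall from 54.1% to 26.7% with fold.

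Where the marks met, they mostly lay offset rather than stacked. Of the 3330 overlapping pairs, 2273 had an H3K4me3 island that reached past 1 end of the H3K27me3 island (68.3%, 66.6 to 69.8%). In 882 pairs the H3K4me3 island lay wholly inside H3K27me3 (26.5%, 24.99 to 28.0%). The reverse, H3K27me3 wholly inside H3K4me3, made up 171 pairs (5.14%), and 4 pairs had identical ends. These shares depend in part on the widths of the islands, and how much of the offset share the widths fix was not tested. Each of the 475 H3K4me3 islands that bridged 2 H3K27me3 islands, described below, counts as 2 offset pairs. In the offset pairs a median of 1200 bp was shared (quartiles 600 and 1800 bp) and a median of 2400 bp of the H3K4me3 island lay outside. A median of 33.3% of the H3K4me3 island and 26.1% of the H3K27me3 island was in the shared stretch. The overhang pointed to lower coordinates in 1152 pairs and to higher ones in 1121 (50.7% to lower, 48.6 to 52.8%), so no preferred side along the chromosome could be shown. Pairs were offset more often than nested under every alternative but an overlap of 50% of the smaller island, which removes offset pairs by its construction and gave 42.6% offset, and joining H3K27me3 islands up to 2 kb apart, which gave 46.5%.

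Sorted by the whole of their contacts, H3K4me3 islands fell into 4 main classes, besides 4 islands with identical ends. The largest held 1246 islands that reached past 1 end of 1 H3K27me3 island (45.0% of the 2770). A further 882 lay inside H3K27me3 (31.8%), 475 bridged 2 H3K27me3 islands without containing either (17.1%), and 163 contained at least 1 H3K27me3 island (5.88%). The classes differed in width. Median widths were 1800 bp inside (quartiles 1200 and 2600 bp), 3200 bp past 1 end (2000 and 4800 bp), 4000 bp for bridges (3000 and 5200 bp) and 6800 bp for islands containing H3K27me3 (5400 and 8900 bp). H3K4me3 islands without H3K27me3 had a median of 2000 bp. Part of this order is fixed by the classes, since a narrow island fits inside more easily and a wide one spans more.

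Seen from H3K27me3, contact at 1 end was the rule. Of the 2849 overlapped islands, 1875 had H3K4me3 at 1 end alone (65.8%), with a median width of 4000 bp that equalled that of islands without H3K4me3. In 515 the H3K4me3 lay inside alone (18.1%, median 6800 bp), and in 201 both inside and at an end (7.06%, median 11000 bp). H3K4me3 at both ends was found at 83 islands (2.91%, median 5000 bp), and 171 lay wholly inside H3K4me3 (6.00%, median 2600 bp). The linked islands formed 2289 separate groups, of which 1606 (70.2%) were 1 island of each mark and 379 (16.6%) were 1 H3K4me3 with 2 H3K27me3 islands.

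**Figure D2:**
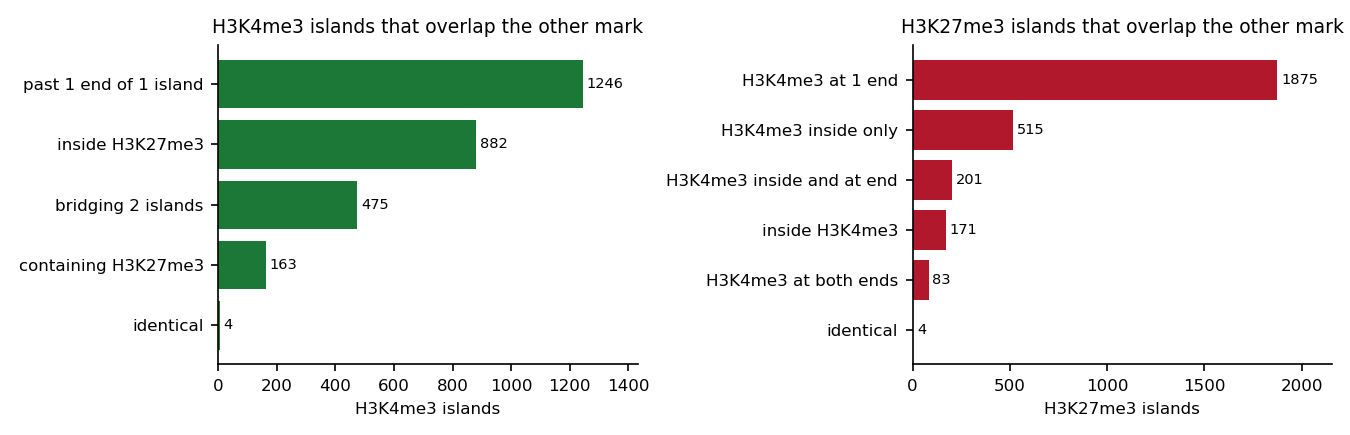
Number of overlapped islands (x axis) in each layout class, for H3K4me3 (left, green) and H3K27me3 (right, red). Contact past 1 end leads on both sides, with 1246 H3K4me3 and 1875 H3K27me3 islands.

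The 475 bridges showed an H3K4me3 island in the middle with H3K27me3 on either side. Each joined exactly 2 H3K27me3 islands, which the class fixes, since an island that met more would contain at least 1 of them. The gap between the 2 had a median of 1200 bp (quartiles 1000 and 1800 bp). The gap took up a median of 34.4% of the bridging island (quartiles 25 and 47.5%). From lower to higher coordinates, its centre lay at a median of 0.50 of the island's width (quartiles 0.42 and 0.59). The direction along the chromosome is arbitrary, so the median alone does not show that gaps lay centrally. In 377 bridges (79.4%) the gap's centre fell in the central one of 3 equal parts of the H3K4me3 island. The centre of a gap that is spanned cannot come close to an end of the island. This share is thus in part fixed by the class. Over all bridges, the median flank width was 4800 bp on the lower and on the higher side. A median of 1200 bp on each side was shared with H3K4me3. Whether the flanks of the same bridge were alike in width was not tested. ChIP reads per kb of the left and right flank were weakly related across the 475 bridges (Pearson's r 0.33, Spearman's rho 0.26, as a description). Joining H3K27me3 islands up to 2 kb apart left 84 bridges, since joining closes gaps. A fold of 2 or more left 232, equal list lengths 25, and an overlap of 50% of the smaller island 15.

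Short breaks between H3K27me3 islands were often filled by H3K4me3. Of 1393 gaps below 2400 bp between neighbouring H3K27me3 islands, 533 were spanned from end to end by 1 H3K4me3 island (38.3%, 35.7 to 40.9%), and 45.7% of the length of these gaps lay under H3K4me3. The spanned share was 30.3% (26.1 to 34.7%, n = 459) for gaps of 800 bp, the shortest possible, and 47.4% (41.6 to 53.3%, n = 293) for gaps from 1600 to below 2400 bp. From 6 to below 10 kb it was 0.71% (2 of 282). The part of these gaps under H3K4me3 was 6.95% there, and 4.10% for gaps from 20 to below 50 kb. A gap can be spanned only by an H3K4me3 island at least as wide. The low spanned share of long gaps is thus in part fixed by island width.

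An average over islands not chosen by their contact showed H3K27me3 lower at H3K4me3 centres than beside them. Such an average does not tell H3K27me3 on both sides from H3K27me3 on 1 side of different islands. Around the centres of all 7967 H3K4me3 islands of 2 to 4 kb, H3K27me3 was called at 6.28% of centres (5.75 to 6.83%). At 1600 bp to the lower side it was called at 9.98% (9.33 to 10.7%) and at 1600 bp to the higher side at 9.97% (9.32 to 10.6%), the maxima of the profile. At 10 kb the values were 3.50% and 3.41%. The dip at the centre was present on 19 of 19 autosomes. It was also present at widths of 4 to 6 kb, with 3.66% at the centre (3.12 to 4.27%) and 7.58% and 8.03% at the maxima, 2200 bp below and 2400 bp above. At widths up to 1 kb the centre had 2.07% (1.78 to 2.40%) and the maxima 2.37% and 2.50%, with overlapping intervals. Above 10 kb the centre had 1.14% (0.77 to 1.64%) and the maxima 1.74% and 1.82% (1.33 to 2.41%), a similar ratio to that at 2 to 4 kb, but with overlapping intervals. Centre and maxima come from the same islands, and the maxima were picked from the profile. The separate intervals thus cannot decide whether there is a dip at either width. Control reads are given per island alone, so their course across a centre was not tested. Joining H3K27me3 islands up to 2 kb apart made the dip at 2 to 4 kb shallower, from a log2 ratio of centre to 2 kb aside of −0.64 to −0.18, and a fold of 2 or more made it deeper, at −1.04.

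From the H3K27me3 side, H3K4me3 was most frequent at the edges. For H3K27me3 islands wider than 4 and up to 8 kb (n = 2536), H3K4me3 covered the first window outside the edge at 18.8% of edges and the first window inside at 18.6%. The maximum of 19.2% (18.1 to 20.3%) lay outside the edge, 600 bp from it. Coverage fell to 11.7% (10.9 to 12.6%) at 2000 bp inside and to 6.07% at 10 kb outside. Islands wider than 8 kb (n = 734) had 24.3% at the first window outside, 17.5% (15.6 to 19.5%) at 4000 bp inside and 8.24% at 10 kb outside. The neighbourhood of an H3K27me3 edge thus carried more H3K4me3 than the interior or the surroundings in both width classes.

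**Figure D3:**
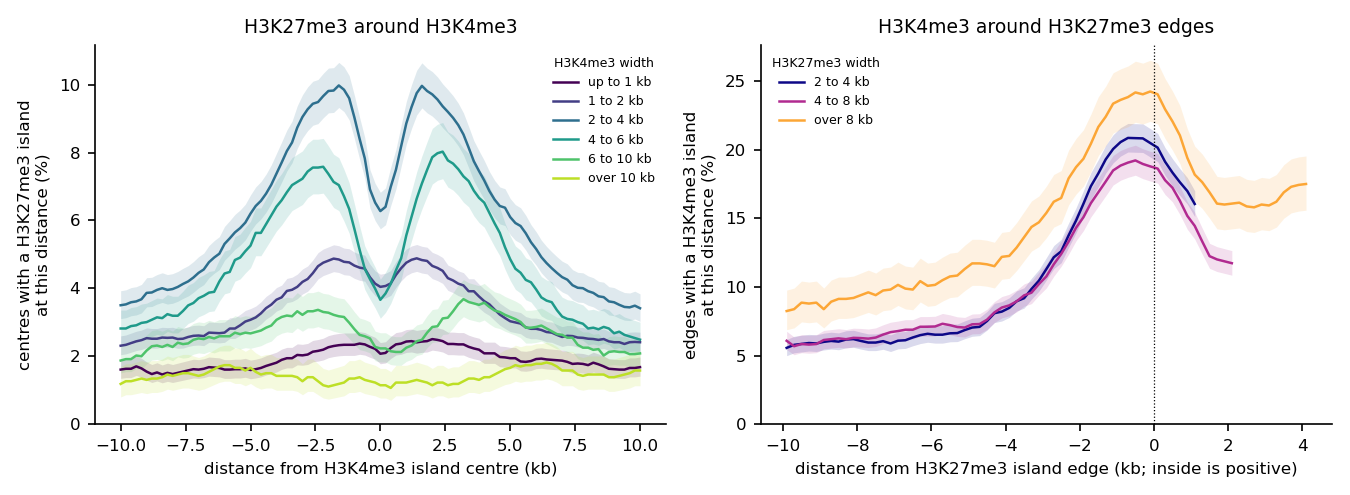
Left: percent of H3K4me3 island centres (y axis) with a H3K27me3 island at each distance in kb (x axis), by H3K4me3 width. Right: percent of H3K27me3 edges with a H3K4me3 island at each distance in kb, inside positive, by H3K27me3 width; shading is the 95% exact binomial interval. H3K27me3 dips at the centre of 2 to 4 kb H3K4me3 islands (6.28% against 9.98% and 9.97%), and H3K4me3 peaks at H3K27me3 edges.

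H3K4me3 islands wholly inside H3K27me3 were small parts of their hosts. They took up a median of 21.0% of the host's width (quartiles 11.3 and 35%), and their nearer edge lay a median of 1800 bp from the host's edge (600 and 3600 bp). Position was taken as the room on the nearer side over the room on both sides. On this scale 0 means touching an edge of the host and 0.5 lying at its centre, whatever the island's width. The median position of the inside islands was 0.28 (0.26 to 0.30). In 5 equal steps from edge to centre there were 161, 156, 152, 199 and 214 islands. The inside islands thus spread over the whole host. The numbers were higher in the steps nearest the host's centre, and whether they differ from an even spread was not tested. With equal list lengths, which left 8 such pairs, the median position was 0.16 (0 to 0.48).

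The 5 inside islands with most reads, among pairs with 50 or more reads and a fold of 2 or more in both marks, lay in hosts of very different size. The first lay at chromosome 2, 146659201 to 146666600 (475 ChIP reads, fold 2.87), inside a H3K27me3 island of 13.6 kb with 376 reads and a fold of 2.14, with 5 kb of H3K27me3 to one side and 1.2 kb to the other. At chromosome 3, 126861801 to 126867000, an H3K4me3 island of 5.2 kb (351 reads, fold 4.83) filled most of a H3K27me3 island of 7.4 kb (180 reads, fold 2.37). The other three lay in long hosts on chromosomes 15 and 6. At chromosome 15, 102805401 to 102814400 (403 reads, fold 2.19) and 102827201 to 102833800 (382 reads, fold 2.93) shared a host of 47.8 kb. At chromosome 6, 52122401 to 52129200 (359 reads, fold 2.62) lay almost at the middle of a host of 30 kb, with 11.8 and 11.4 kb of H3K27me3 on its sides.

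Most overlapped H3K27me3 islands met a single H3K4me3 island, and a few long ones held many. Of 2849, 2509 had 1 H3K4me3 island (88.1%), 257 had 2, and 83 had 3 or more, with median widths of 4200, 7400 and 15000 bp. The island with most H3K4me3 spanned chromosome 6, 52141401 to 52183800 (42.4 kb, 1342 ChIP and 647 control reads, fold 2.02) and met 9 H3K4me3 islands. Of these, 7 lay wholly inside and 1 crossed each end. They were 800 to 6800 bp wide with 28.9 to 75 ChIP reads per kb, and together they lay over 69.8% of the H3K27me3 island.

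The next islands in that order were built alike but differed in how much H3K4me3 they carried. At chromosome 2, 74544001 to 74600800 (56.8 kb, 1797 reads, fold 2.51), 8 H3K4me3 islands lay over 35.2% of the length. At chromosome 15, 102797201 to 102845000 (47.8 kb, 1400 reads, fold 2.07), 8 islands lay over 63.6%. Chromosome 11 held the remaining pair, 96147401 to 96180200 (32.8 kb, 1106 reads, fold 2.19) with 7 islands over 68.3% and 96181001 to 96240800 (59.8 kb, 1723 reads, fold 2.35) with 6 islands over 26.4%. In all, 6 H3K27me3 islands met 6 H3K4me3 islands, and this one had most ChIP reads among those with 50 or more reads and a fold of 2 or more. One H3K4me3 island of 4.4 kb (323 reads, fold 4.00) bridged these neighbours, at chromosome 11, 96178201 to 96182600. In the second of them no H3K4me3 island lay beyond the first 36.2 kb. Of the 8, 8, 7 and 6 H3K4me3 islands counted above, 4, 5, 2 and 3 had 50 or more reads and a fold of 2 or more. The lowest folds were 1.40, 1.81, 1.27 and 1.30, in the same order. As background, chromosomes 6, 2, 15 and 11 each carry a Hox cluster, a row of homeobox genes under Polycomb control in embryonic stem cells; no annotation of mm9 was used, so the intervals were not assigned to genes.

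**Figure D4:**
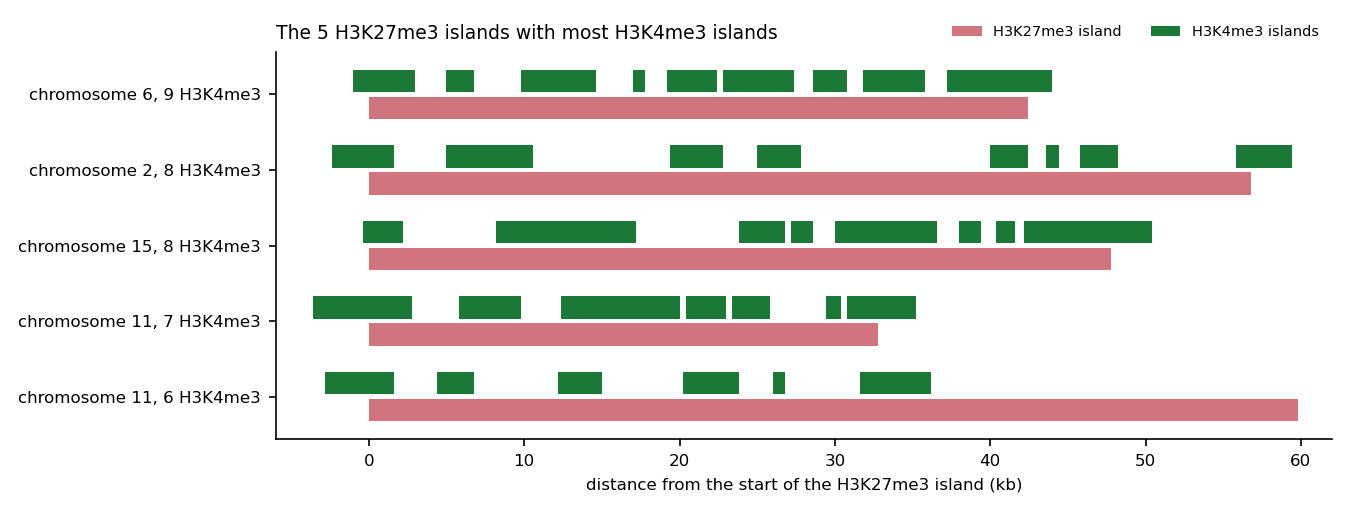
The 5 H3K27me3 islands that met most H3K4me3 islands, the last chosen by reads among 6 with 6 each (red), with the H3K4me3 islands over them (green), against distance in kb from the start of the H3K27me3 island (x axis). The chromosome 6 island holds 9 H3K4me3 islands over 69.8% of its length, and the lowest chromosome 11 island holds 6 over 26.4%. All H3K4me3 islands are shown, also those below 50 reads or a fold of 2.

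H3K4me3 islands that contained a H3K27me3 island were few and wide, and dense only with all widths pooled. The 163 islands had a median of 82.4 ChIP reads per kb and a fold of 5.12, against 54.5 and 3.52 without H3K27me3. At 6 to 10 kb they had 79.4 reads per kb (75.5 to 85.4, n = 66), below the 114.1 (112.9 to 115) without H3K27me3. Above 10 kb they had 94.1 (88.3 to 101.1, n = 35) against 120.9 (119.8 to 123.1). At 4 to 6 kb the intervals overlapped. At 2 to 4 kb containing islands were denser, with 68.6 (56.1 to 87.5, n = 14) against 50.4 (49.6 to 51.1). Among containing islands whose H3K27me3 island also had 50 or more reads and a fold of 2 or more, the 5 with most reads were 20 to 22.2 kb wide. The H3K27me3 islands inside them were 4.4 to 7.4 kb wide. The first spanned chromosome 5, 120117201 to 120139400 (2415 reads, fold 5.11), around a H3K27me3 island of 5.4 kb with 128 reads and a fold of 2.15. At chromosome 11, 68922201 to 68942200 (2391 reads, fold 7.08), the H3K27me3 island of 4.4 kb had 93 reads and a fold of 2.01. At chromosome 10, 21860001 to 21881200 (2123 reads, fold 3.47), it was 7.4 kb wide, with 301 reads and a fold of 2.99. The remaining ones lay at chromosome 13, 23386201 to 23406400 (2049 reads) and chromosome 12, 74137801 to 74158000 (2024 reads).

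The read density of H3K4me3 differed with the layout. Islands inside H3K27me3 had the lowest median, 45.8 ChIP reads per kb (quartiles 36.3 and 57.5), below the 54.5 of islands without H3K27me3 (38.3 and 90.9). Density differs with width, and the inside islands are narrow. Over all H3K4me3 islands its median was 46.7 up to 1 kb, 40 at 1 to 2 kb and 52.2 at 2 to 4 kb, and higher above. Up to 1 kb the inside islands had 42.5 reads per kb (40 to 45, n = 159), lower than the 46.7 (46.25 to 47) without H3K27me3. At 1 to 2 kb they had 42.9 reads per kb (40.7 to 45) against 40 (39.4 to 40) without H3K27me3. At 2 to 4 kb they had 50.2 (47.9 to 52.9) against 50.4 (49.6 to 51.1), so from 1 to 4 kb no lower density could be shown. At 4 to 6 kb it was lower, with 49.8 (46.7 to 54.3, n = 33) against 89.2 (87.9 to 91.1). At 6 to 10 kb it was 45.2 (41.9 to 65.6, n = 18) against 114.1 (112.9 to 115). Above 10 kb the intervals overlapped, with 97.4 (74.0 to 234.2, n = 7) against 120.9 (119.8 to 123.1). The median fold was lower inside up to 1 kb, with 2.28 (2.16 to 2.48) against 2.92 (2.88 to 2.97). It was also lower at 2 to 4 kb, with 2.63 (2.52 to 2.81) against 3.07 (3.03 to 3.12). At 1 to 2 kb the fold intervals met, with 2.40 (2.28 to 2.60) against 2.60 (2.56 to 2.63). Over all widths, islands past 1 end had 67.1 (51.3 and 85.6) and bridges 66.0 (54.0 and 79.3). The inside median was 0.68 of that past 1 end (0.66 to 0.71), and bridges and islands past 1 end could not be told apart (ratio 0.98, 0.94 to 1.04). Inside islands were also below those past 1 end at 1 to 2 kb, where the latter had 49 (46.4 to 52), and at 2 to 4 kb, with 64.7 (63.2 to 66.9). The median fold over control was 2.50 inside, 3.87 past 1 end, 3.84 for bridges and 3.52 without H3K27me3. Median control reads per kb were 14 inside, 13.0 past 1 end, 12.8 for bridges and 12.1 without H3K27me3, and their part in these differences was not tested.

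Pooled over all layouts, the difference between overlapped and other H3K4me3 islands was small and its direction depended on the islands counted. The median was 60.0 ChIP reads per kb with H3K27me3 and 54.5 without, a ratio of 1.101 (1.08 to 1.13), while the median fold was 3.402 and 3.52, a ratio of 0.97 (0.94 to 0.99). With 50 or more reads required in both lists the log2 ratio of ChIP reads per kb turned from 0.14 to −0.11, and with equal list lengths to −0.20. Reads pooled over all islands, where wide islands weigh more, gave 74.4 per kb with H3K27me3 and 93.1 without.

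H3K27me3 islands with H3K4me3 were denser in ChIP reads but lower in fold than those without. Median ChIP reads per kb were 21.3 with H3K4me3 (quartiles 18.9 and 24.1) and 18.4 without (16.6 and 20.9), a ratio of 1.16 (1.147 to 1.18). Control reads rose more, from 7.50 to 10.0 per kb, a ratio of 1.33 (1.30 to 1.37), so the median fold was lower with H3K4me3, 2.09 against 2.35 (ratio 0.89, 0.87 to 0.91). Among the layouts with more than 4 islands, ChIP reads per kb were lowest for H3K4me3 inside alone, at 20, and highest for H3K4me3 both inside and at an end, at 24.5. Islands are listed if they pass an FDR of 0.05 on ChIP against control reads, so a place with more control reads needs more ChIP reads to be listed.

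**Figure D5:**
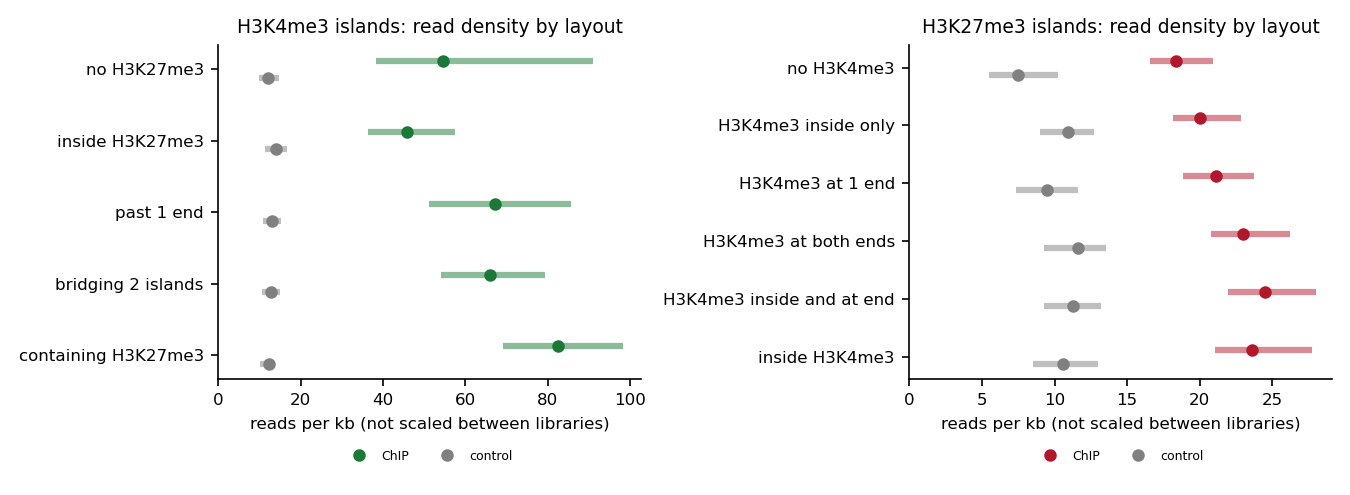
ChIP reads per kb (colour) and control reads per kb (grey) on the x axis, as median (point) and quartiles (bar) over the islands of each layout class, for H3K4me3 (left) and H3K27me3 (right). Widths are pooled; H3K4me3 inside H3K27me3 has 45.8 reads per kb, and control reads are higher at H3K27me3 islands with H3K4me3 (10.0) than without (7.50).

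In the 1606 groups of 1 island of each mark, the densities of the 2 marks showed next to no relation. Spearman's rho of their ChIP reads per kb was 0.01 and Pearson's r on the log2 scale 0.08. With the pairs divided into 5 equal parts by H3K4me3 reads per kb, from a median of 39.2 to 100.7, the median of H3K27me3 lay between 20 and 20.7 reads per kb. Fold over control gave a rho of 0.31 and control reads 0.52, the 2 islands of a pair sharing 1 control library and part of their sequence. The widths had a rho of −0.16. H3K27me3 was wider in 1050 of the pairs (65.4%), and the median ratio of its width to that of H3K4me3 was 1.54 (1.45 to 1.62).

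A few such pairs had a high fold over control in both marks. At chromosome 4, 28738601 to 28744400 had 680 H3K4me3 reads (fold 10.99) and overlapped the H3K27me3 island 28743201 to 28746400, with 72 reads (fold 14.02), over 1200 bp. At chromosome 4, 116547801 to 116553400, H3K4me3 (580 reads, fold 10.8) contained an H3K27me3 island of 2 kb (68 reads, fold 11.03). At chromosome 1, 52554001 to 52559000 (535 reads, fold 9.94), H3K27me3 held 52 reads over 2.2 kb (fold 10.1). These H3K27me3 folds rest on 5, 6 and 5 control reads, or 1.56, 3 and 2.27 per kb against a list median of 8.67. Their H3K27me3 ChIP reads per kb were 22.5, 34 and 23.6, against a list median of 19.6. The fourth pair was of another kind: at chromosome 5, 37051801 to 37052800, both lists gave the same interval of 1 kb, with 105 H3K4me3 and 287 H3K27me3 reads over 9 control reads. H3K27me3 was denser there than H3K4me3, as in 12 of the 1606 pairs. The last lay at chromosome 7, 69479001 to 69481000 (160 reads, fold 7.93), and shared 200 bp with a H3K27me3 island of 9 kb (163 reads, fold 8.35). That H3K27me3 island had 18.1 ChIP and 2.11 control reads per kb.

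Islands without overlap showed the imbalance of the lists in their distances. The 3724 H3K27me3 islands without H3K4me3 lay a median of 18.2 kb from the nearest H3K4me3 island (16.8 to 19.4 kb). Of these, 933 (25.1%) lay within 5 kb and 2784 (74.8%) within 50 kb. The 36739 H3K4me3 islands without H3K27me3 lay a median of 233.6 kb from H3K27me3 (230.6 to 237.4 kb), and 795 (2.16%) were within 5 kb. The lists differ in length, which bears on both distances: with equal list lengths H3K27me3 islands lay a median of 221 kb from H3K4me3. With an overlap of 50% required, so that islands meeting by less count as apart, the median was 8 kb. Islands meeting by less enter that median with no distance, which lowers it. Widths changed little with distance: H3K27me3 islands less than 1 kb from H3K4me3 had a median of 3800 bp and those 100 kb away or farther also 3800 bp. Control reads per kb went from 8.50 to 6.54 over the same span, and the fold from 2.26 to 2.56.

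The H3K27me3 islands with most reads and no H3K4me3 included some of the longest in the list. The first spanned chromosome 13, 12865801 to 12952000 (86.2 kb, 2974 ChIP and 1333 control reads, fold 2.17), 67 kb from the nearest H3K4me3 island, and chromosome 13, 12827801 to 12850000 (22.2 kb, 579 reads, fold 2.06) lay beside it. On chromosome 7, 150384001 to 150411400 (27.4 kb, 743 reads) had a fold of 4.23 and lay 42.8 kb from H3K4me3. Also on chromosome 7, 69589001 to 69606000 (17 kb, 488 reads) had a fold of 5.46, with an H3K4me3 island 0.4 kb away that it did not meet. The last, chromosome 14, 7757401 to 7768400 (11 kb, 429 reads, fold 2.16), had 17.5 control reads per kb against a median of 8.67 in the list.

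Much of the H3K4me3 list lay far from H3K27me3. In all, 27356 H3K4me3 islands (69.2%) were more than 100 kb from any H3K27me3 island. The 5 of them with most reads were 36.8 to 60.6 kb wide. The densest spanned chromosome 7, 80670801 to 80707600, with 7486 reads, 203.4 per kb and a fold of 18.7, at 128.4 kb from H3K27me3. Chromosome 9, 114419801 to 114480400 (7250 reads, fold 6.48), was the widest at 60.6 kb. The island at chromosome 11, 69463801 to 69502800, held 6605 reads at a fold of 8.86. That at chromosome 10, 62323401 to 62367800, held 6436 at a fold of 8.46. The most remote of the 5, at chromosome 13, 44822001 to 44877800 (6142 reads), lay 1097.6 kb from H3K27me3.

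The layout varied between autosomes within limits. The share of H3K4me3 islands with H3K27me3 ran from 4.48% on chromosome 7 to 10.2% on chromosome 14, with a median of 7.31%. The share of H3K27me3 islands with H3K4me3 ran from 25.5% on chromosome 14 to 53.7% on chromosome 4, with a median of 45.1%. Offset pairs made up 57.9% (chromosome 4) to 78.2% (chromosome 7), more than nested pairs on each of the 19 autosomes. Chromosome 14 stood apart. It had 706 H3K27me3 islands against a median of 292 per autosome, and 406 of them lay in its first 10 Mb, where 61 met H3K4me3. Its H3K27me3 islands had a median of 11.2 control reads per kb, the highest of the autosomes, and a fold of 1.78, the lowest. Without that segment 45.2% of H3K27me3 islands overlapped H3K4me3.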

How the data were processed

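Chromatin immunoprecipitation with 50 bp reads was analysed for 1 KO H3K4me3 and 1 KO H3K27me3 library; the title of the second sample reads H2K27me3, while its antibody label and protocol name H3K27me3. Per the submitters' processing notes, Bowtie (version not given in the sources used here) and SICER 1.1 were used on mm9, and the deposited lists carry windows of 200 bp, gaps of 200 bp (H3K4me3) and 600 bp (H3K27me3) and an FDR of 0.05. No source used here names read or duplicate filters. The authors deposited, per island, ChIP and control read counts, neither scaled, a p-value and an adjusted p-value, and a fold ratio. The deposited fold ratio equals ChIP over control counts multiplied by a constant of each list; where the control count was 0, 0.25 stood in for it.

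Starts and ends were made 1-based in mm9. Overlap was 1 bp or more. Density is reads over island width. Intervals are 95%: exact Clopper-Pearson for shares, rank-based for medians, and for ratios of medians the rank-based intervals combined in quadrature on the log scale. Regions were named by a rule. Among islands with 50 or more reads, a fold of 2 or more and control reads per kb at most 3 times the list median, 5 were taken per class: inside H3K4me3 islands, H3K27me3 islands by number of H3K4me3 islands, H3K27me3 islands without H3K4me3, H3K4me3 islands containing H3K27me3, H3K4me3 islands more than 100 kb from H3K27me3, and 1 to 1 pairs by the smaller fold. The H3K4me3 islands counted for a H3K27me3 island were not held to these minimums. Members and rules were chosen with earlier results of these data known. The bridging island on chromosome 11 and chromosome 14's first 10 Mb were chosen after their values were seen. Genes, promoters and base composition were not analysed here, since they need an mm9 genome or annotation, and no coordinates were converted. Python 3.11.15, numpy 2.4.6, pandas 2.3.3, scipy 1.17.1 and matplotlib 3.10.9 were used. The interval code was tested on simulated data, and counts differed by 0 from bedtools 2.31.1.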

Additional observations from a re-analysis of the deposited data

How the results depend on the processing

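Of 239 values under alternatives for 28 results, 130 stayed within the interval of the reported value (counts: within 1.5 times; correlations: within 0.1), 107 moved further and 2 changed direction; beyond the construction of each alternative, the causes were not tested. In the order H3K4me3 islands with H3K27me3, H3K27me3 islands with H3K4me3, H3K27me3 length under H3K4me3, and pairs past 1 end, the percentages were 4.55, 24.5, 12.4 and 42.6 when 50% of the smaller island had to overlap, 5.89, 40.2, 14.6 and 71.9 at an FDR of 1e-05, 4.25, 37.1, 13.7 and 75.2 with a fold of 2 or more, 8.09, 41.7, 15.7 and 72.9 with 50 or more reads, and 2.98, 3.85, 2.64 and 71.6 with equal list lengths. Joining H3K4me3 islands up to 600 bp apart gave 7.46% of H3K4me3 islands, 16.8% of the length and 69.9% of pairs. All chromosomes gave 41.9% of H3K27me3 islands and 16.0% of the length. H3K27me3 islands without overlap lay a median of 8, 20.2, 20.9, 22.8 and 221 kb from H3K4me3 under the first 5 alternatives, in that order, and 19.6 kb over all chromosomes. The 8 kb include islands that met by less than 50%, entered with no distance. The log2 ratio of median H3K4me3 reads per kb, with over without H3K27me3, was 0.0295, 0.0349, 0.0589, −0.11 and −0.20 in that order, the last 2 being the changes of direction, and 0.0824 after joining H3K4me3 islands. That of H3K27me3 reads per kb was 0.18 with 50% overlap, 0.26 at the lower FDR, 0.29 with a fold of 2 and 0.14 with equal lengths. The log2 ratio of H3K4me3 width was 0.49 with 50% overlap, 0.42 at the lower FDR, 0.0931 with 50 or more reads and 0.0317 with equal lengths. Bridges numbered 15 with 50% overlap, 232 with a fold of 2 and 25 with equal lengths. The folded position inside H3K27me3 was 0.30 with a fold of 2 and 0.16 (0 to 0.48, 8 pairs) with equal lengths, and the log2 dip at H3K4me3 centres was −1.04 with a fold of 2; it could not be computed with equal lengths, where no centre of 2 to 4 kb was covered. Added after the data were seen, joining H3K27me3 islands up to 2 kb apart gave 84 bridges, 46.5% of pairs past 1 end, 17.8% of the length, a position of 0.31, a distance of 22.2 kb, a dip of −0.18, and log2 ratios of 0.17 for H3K27me3 reads per kb and 0.54 for H3K27me3 width. Also added, leaving out chromosome 14 below 10 Mb gave 45.2% of H3K27me3 islands and 17.8% of the length, and without the whole chromosome 45.5% were overlapped; the coverage profile under the alternatives was added as well. No paired analysis was possible because each mark had 1 KO library. H3K27me3 islands held a median of 75 ChIP and 34 control reads, which limits the precision of their density and fold.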
